A study of Mus musculus with 12 samples.

Results

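The genes described here carry pyruvate into the mitochondrion and decide its first reaction there. They were chosen by symbol: Mpc1 and Mpc2, the 2 subunits of the mitochondrial pyruvate carrier; Pdha1, Pdhb and Dlat, which encode the E1 alpha, E1 beta and E2 subunits of the pyruvate dehydrogenase complex; the kinases Pdk1, Pdk2 and Pdk4; the phosphatase Pdp1; and Pcx, pyruvate carboxylase. Each of the 10 symbols matched 1 of the 44450 loci in every file, none shared its locus with another gene, and all 10 passed the filter on low values that left 12181 loci for testing. The tested hearts came from 3 knockout samples of C57BL/6N mice aged 11 weeks, homozygous for a loxP-flanked Mrpp3 allele (Mrpp3 loxP/loxP) and carrying the transgene labelled +/Ckmm, a Cre driven by the muscle creatine kinase promoter. They were compared with 3 control samples of the same strain and age, which carry the same floxed Mrpp3 loxP/loxP alleles and are not labelled with the transgene. Cre is thus present with the deletion alone, so its own effect cannot be told apart from that of losing Mrpp3, and recombination is limited to cells in which that promoter is active, while RNA was taken from whole heart. Mrpp3, now named Prorp, encodes the catalytic part of mitochondrial RNase P, the enzyme that cuts transcripts at the 5′ ends of tRNAs.

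Pyruvate made by glycolysis or from lactate crosses the inner mitochondrial membrane through a carrier built from MPC1 and MPC2. The pyruvate dehydrogenase complex then converts it to acetyl-CoA, with E1 (a tetramer of alpha and beta subunits) removing carbon dioxide, E2 forming the core and making acetyl-CoA, and E3 reoxidising the lipoate arms of E2. Pyruvate dehydrogenase kinases switch the complex off by phosphorylating E1 alpha, and the phosphatases PDP1 and PDP2 switch it on again. In heart muscle, which burns mainly fatty acids, PDK4 and PDK2 are the kinases best known for holding back glucose oxidation, and pyruvate carboxylase offers the other route, to oxaloacetate.

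Total RNA was sequenced after removal of rRNA, and levels are given in FPKM, which corrects fragments for transcript length and library size. Relative depth, read from the spacing of low values, was 2.06 to 2.57 in knockout libraries and 1.00 to 1.35 in controls (control replicate 1 set to 1), so depth went with genotype and its part in the results was not tested. Prorp, listed under its older symbol 1110008L16Rik, averaged 0.566 ± 0.130 FPKM in knockout and 3.12 ± 0.437 FPKM in control hearts (SD, n = 3 each). Knockout replicate 2 stood apart. It held the atrial light chain Myl7 at 911 FPKM, against 43.5 and 0.0961 FPKM in the other knockout libraries, and the globin Hbb-bs at 13872 FPKM, against 378 and 1188 FPKM. Among the knockout libraries it had the lowest value for 9 of the 10 pyruvate genes, Pdp1 being the exception, against 43.7% of all tested loci. Its median distance from the mean of the other knockouts was -0.63 for the 10 genes and -0.063 for all loci (log2 scale). Some results are therefore also given without it. The summed level of 8 fixed ventricular markers was lower as well. It ran from 8160 to 16405 FPKM in knockouts and from 33671 to 37114 FPKM in controls, with Ttn listed at 0 in 4 libraries. Of 7 tested members 5 fell (Myh6, Myl3, Tnni3, Tnnt2 and Actc1), beside 19.5% of all tested loci. Myl2 did not pass (log2 fold change -2.28, limma adjusted p = 0.051). Myh7 lay in the opposite direction and did not pass (log2 fold change 2.74, limma adjusted p = 0.078). Myh7 averaged 167 ± 196 FPKM in knockouts and 19.5 ± 20.6 FPKM in controls, with overlapping groups (SD, n = 3 each). In whole hearts, fewer cells of a type and less RNA per cell cannot be told apart. Non-muscle markers were in part higher. The 8 fibroblast markers summed to 381 to 673 FPKM in knockouts and 335 to 410 FPKM in controls. Of them 5 rose (Col1a1, Col1a2, Col3a1, Tcf21 and Postn), beside 16.1% of all tested loci. Pdgfra, Lum and Dcn did not pass. Dcn lay lower in every knockout (202, 186 and 181 FPKM, against 265, 229 and 217 FPKM in controls). Of 8 macrophage markers 5 rose (135 to 157 against 98.0 to 108 FPKM), beside the same share of all loci. Of 4 tested atrial markers Nppa rose, again beside 16.1% of all loci (6 summed to 2070 to 14256 FPKM in knockouts and 47.7 to 127 FPKM in controls). Of 7 endothelial markers (267 to 359 against 295 to 326 FPKM) and 5 blood genes (622 to 21895 against 1572 to 2902 FPKM) none passed, beside 35.7% of all loci. The 7 adipocyte markers summed to 66.8 to 134 FPKM in knockouts and 59.2 to 98.3 FPKM in controls. Pnpla2, the 1 tested, did not pass, and of the defining markers Plin1, Cfd and Retn were listed at 0 in all controls, while Adipoq, Lep and Cidec were listed at 0 in 2 of the 3. In knockout replicates 1 to 3 Cfd had 2.34, 6.41 and 0.0539 FPKM and Adipoq 0.432, 1.46 and 0 FPKM. For each of these defining markers replicate 2 was the highest knockout library. The part of cell makeup in the results below was not tested.

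Of the 10 genes, 5 were lower in knockout hearts (Mpc1, Mpc2, Dlat, Pdk2 and Pdp1), none was higher and 5 did not pass. The test was limma on log2(FPKM + 0.5) with Benjamini-Hochberg adjustment over all loci and a threshold of 0.05. Of all tested loci 35.7% passed, with 16.1% higher and 19.5% lower in the knockout. The median log2 fold change, knockout over control, was -0.71 over the 10 genes and -0.020 over all loci. In 6 of the 10 genes every knockout library lay below every control library, as in 28.7% of all loci; in none did every knockout lie above, as in 23.6% of all loci. Without knockout replicate 2 the same 5 genes were lower, and 2 others, Pdhb and Pdk4, were higher. The median log2 fold change was then -0.50 over the 10 genes and -0.020 over all loci. Mpc1, Mpc2, Dlat, Pdk2 and Pdp1 then had log2 fold changes of -0.57, -1.10, -0.60, -0.74 and -0.81. In that run 2389 of all loci were lower and 2153 higher. Of the 10 genes, the number lower was 3, 2 and 2 without control replicate 1, 2 or 3, and 6 without knockout replicate 3. All loci lower numbered 1529, 1409 and 1470 without those controls in turn, and 2336 without knockout replicate 3, against 2377 with all libraries. When all libraries were set to an equal FPKM total, the test gave 3229 loci higher and 1400 lower, against 1966 and 2377. It moved the median of all loci to 0.20 and that of the 10 genes to -0.48, leaving 4 of the 10 genes lower, without Pdp1.

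**Figure D1:**
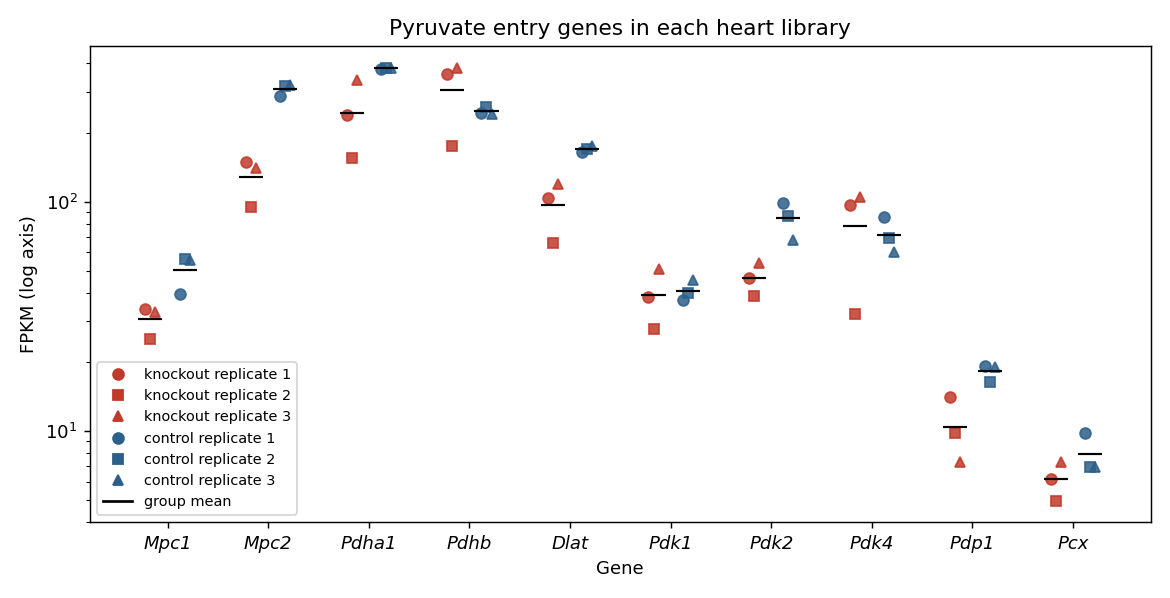
FPKM of the 10 genes on a log axis in each library, with knockout libraries (red) left of control libraries (blue), markers for replicates 1 to 3 and a line at each group mean. Mpc1, Mpc2, Pdha1, Dlat, Pdk2 and Pdp1 have all knockout libraries below all controls, and knockout replicate 2 (square) is the lowest knockout library except for Pdp1.

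The order of the levels changed between the groups. In knockout hearts Pdhb had the highest mean (305.5 ± 114 FPKM), followed by Pdha1 (244 ± 91.8), Mpc2 (128 ± 29.1), Dlat (96.4 ± 27.6), Pdk4 (77.9 ± 39.7), Pdk2 (46.3 ± 7.57), Pdk1 (39.1 ± 11.6), Mpc1 (30.7 ± 4.80), Pdp1 (10.4 ± 3.42) and Pcx (6.15 ± 1.17). Only Pdha1 against Mpc2 and Mpc1 against Pdp1 were neighbours whose ranges did not overlap. In controls the order was Pdha1 (381 ± 3.63 FPKM), Mpc2 (309 ± 17.5), Pdhb (248 ± 9.48), Dlat (170 ± 4.96), Pdk2 (84.5 ± 15.4), Pdk4 (71.8 ± 12.7), Mpc1 (50.5 ± 9.54), Pdk1 (40.9 ± 4.08), Pdp1 (18.2 ± 1.58) and Pcx (7.90 ± 1.60), all SD with n = 3. There only Pdk2 with Pdk4 and Mpc1 with Pdk1 overlapped. The 10 genes together summed to 1085, 629 and 1237 FPKM in knockout replicates 1 to 3, against 1364, 1406 and 1376 FPKM in the controls.

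The carrier was lower in both subunits. Mpc2 had 149, 94.7 and 140.0 FPKM in knockout replicates 1 to 3, against 289, 318 and 321 FPKM in control replicates 1 to 3. No knockout library came near the lowest control, and the log2 fold change was -1.30 (SE 0.20, limma adjusted p = 0.0031), the largest fall of the 10 genes. Mpc1, its partner, had 34.1, 25.2 and 32.9 FPKM in knockouts, against 39.5, 56.4 and 55.6 FPKM in controls. The groups lay close, with control replicate 1 just above the highest knockout, and the log2 fold change was -0.70 (SE 0.19, limma adjusted p = 0.025). This call was lost without control replicate 2 or 3 (limma adjusted p = 0.094 and 0.090). The Mpc2 call held in each alternative run. Within a library the Mpc1 to Mpc2 ratio was 0.229, 0.266 and 0.235 in knockouts and 0.136, 0.177 and 0.173 in controls. It was higher in all 3 knockouts, by 0.59 on the log2 scale (means -2.04 ± 0.12 and -2.63 ± 0.21, SD, n = 3; exact two-sided permutation p = 0.10, the smallest that 3 against 3 allows; 0.16 adjusted over the 8 ratios computed). Some of those 8 ratios, named below, were chosen after the values were seen, and counting them lowers the adjusted value.

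Mpc2 lies on chromosome 1 at 165461260 to 165481218 and Mpc1 on chromosome 17 at 8283787 to 8297667 (GRCm38.p6). The 150 bases just upstream of the RefSeq start sites are shown because these 2 genes encode partners of 1 carrier and were lower together; capitals mark matches to any of 6 motifs searched on both strands.
Mpc1, chr17:8283637-8283786, plus strand: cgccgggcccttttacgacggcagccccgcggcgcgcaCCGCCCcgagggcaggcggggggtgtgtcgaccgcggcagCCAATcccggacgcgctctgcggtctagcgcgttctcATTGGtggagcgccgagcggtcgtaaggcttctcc
Mpc2, chr1:165461110-165461259, plus strand: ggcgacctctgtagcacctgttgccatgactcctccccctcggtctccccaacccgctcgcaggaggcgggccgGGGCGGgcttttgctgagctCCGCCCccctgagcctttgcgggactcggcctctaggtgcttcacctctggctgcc
The motifs were CCAAT (the CCAAT box), GGGCGG (the GC box), GCGCANGC (the core of NRF1 sites), ACGTG (the hypoxia response core), TGATGNAA (the core of ATF4 sites) and TCAAGGTCA (the estrogen-related receptor half-site). In the full windows of 250 bases before to 50 bases after the start, Mpc1 held CCAAT at 2 places and GGGCGG at 1, and Mpc2 held GGGCGG at 2 places and CCAAT and GCGCANGC at 1 each, with no overlapping matches. Among all 32851 such windows in the RefSeq table, 37.4% hold CCAAT, 35.7% GGGCGG, 19.6% ACGTG, 9.95% GCGCANGC, 3.97% TGATGNAA and 0.423% TCAAGGTCA. A second RefSeq start of Mpc1 is not shown.

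The subunits of the dehydrogenase did not move together. Dlat, the E2 core, had 104, 65.8 and 119 FPKM in knockouts, against 165, 169 and 175 FPKM in controls. The controls lay within a narrow band above every knockout, and the log2 fold change was -0.86 (SE 0.22, limma adjusted p = 0.023). The Dlat call was lost without any one control (limma adjusted p = 0.064, 0.072 and 0.075). Pdha1, the E1 alpha subunit that the kinases phosphorylate, had 238, 155 and 338 FPKM in knockouts, against 377, 384 and 382 FPKM in controls. Every knockout was below every control, but the knockouts were spread widely and the difference did not pass (log2 fold change -0.72, SE 0.27, limma adjusted p = 0.080). Without knockout replicate 2 the log2 fold change was -0.43 (limma adjusted p = 0.085), and after quantile normalization it was -0.47 (0.068). Pdha1 passed with array weights (limma adjusted p = 0.0057) and without knockout replicate 3 (0.015). Pdhb, the E1 beta subunit, had 358, 175 and 383 FPKM in knockouts, against 243, 259 and 242 FPKM in controls. Knockout replicates 1 and 3 were above all controls and replicate 2 was below them, so the groups overlapped (log2 fold change 0.22, SE 0.30, limma adjusted p = 0.59). Without knockout replicate 2 Pdhb was higher in the knockout, with a log2 fold change of 0.58 and a limma adjusted p of 0.0077.

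Within libraries, the RNAs of the E1 alpha and beta subunits changed places in order between the groups. With all libraries neither gene passed the test. Pdha1 stood at 0.663, 0.885 and 0.883 times Pdhb in knockout replicates 1 to 3, and at 1.55, 1.48 and 1.58 times Pdhb in controls. All knockouts were below 1 and all controls above it. The difference was -0.94 on the log2 scale (means -0.32 ± 0.24 and 0.62 ± 0.05, SD, n = 3; exact two-sided permutation p = 0.10, the smallest possible; 0.16 adjusted over 8 ratios) and lay between -1.01 and -0.80 with any one library left out. A ratio within a library is not touched by library scaling and shows unequal change only. Knockout replicate 2, low in both genes, had nearly the same ratio as replicate 3. This ratio, and those of Dlat to Pdhx and of Pdp1 to Pdp2 below, were chosen after the values were seen. Their p-values are therefore descriptive only, and counting them among the 8 lowers the adjusted p of the planned ratios.

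The windows upstream of this pair are shown because the 2 genes encode subunits of 1 enzyme and differed in response; capitals again mark matches to the 6 motifs.
Pdha1, chrX:160138431-160138580, minus strand: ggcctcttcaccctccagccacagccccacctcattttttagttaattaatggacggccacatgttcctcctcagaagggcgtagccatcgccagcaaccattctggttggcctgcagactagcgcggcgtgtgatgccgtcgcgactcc
Pdhb, chr14:8172993-8173142, minus strand: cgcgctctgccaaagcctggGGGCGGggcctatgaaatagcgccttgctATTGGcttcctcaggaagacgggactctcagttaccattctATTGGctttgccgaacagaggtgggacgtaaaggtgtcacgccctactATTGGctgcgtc
Pdha1 (chromosome X, 160122219 to 160138430) held none of the 6 motifs in its full window. Pdhb (chromosome 14, 8165991 to 8173303) held CCAAT at 3 places, each on the opposite strand, GGGCGG at 2 and ACGTG at 1, with no overlaps. The start site that RefSeq's window uses for Pdhb, 8172992, lies inside the annotated gene. No match says only that these letters are absent from this window, and a match is not a binding site.

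**Figure D2:**
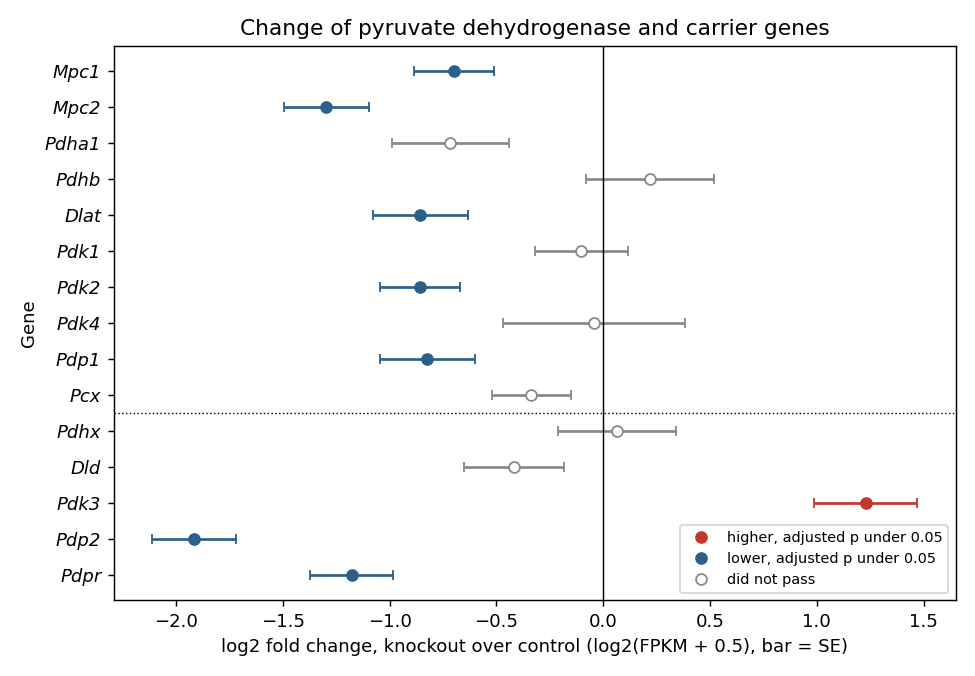
Log2 fold change of knockout over control with its SE for the 10 genes (above the dotted line) and 5 further genes of the complex and its regulators. Filled blue points passed as lower, filled red as higher, and open grey points did not pass; Pdhb and Pdha1 lie on opposite sides of 0, and Pdk3 is the only gene shown that passed as higher.

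Of 6 further genes of the complex, its kinases and its phosphatases, 5 were tested, 1 rose and 2 fell (16.1 and 19.5% of all loci). Pdhx, which anchors E3 to the core, had 66.2, 38.0 and 83.7 FPKM in knockouts, against 51.3, 64.4 and 56.0 FPKM in controls, with no difference past the threshold (log2 fold change 0.063, limma adjusted p = 0.88). Dld, the E3 subunit shared with sister complexes, had 107, 68.5 and 126 FPKM in knockouts, against 139, 139 and 114 FPKM in controls (log2 fold change -0.42, limma adjusted p = 0.20). The groups overlapped for both genes, and without knockout replicate 2 the log2 fold changes were 0.38 for Pdhx and -0.16 for Dld. Dlat stood at 1.57, 1.73 and 1.43 times Pdhx in knockouts and at 3.22, 2.63 and 3.12 times in controls, lower in all 3 knockouts by a log2 difference of -0.92 (means 0.65 ± 0.14 and 1.57 ± 0.16, SD, n = 3; exact permutation p = 0.10; 0.16 adjusted over 8 ratios). Pdha2, the testis form of E1 alpha, was listed at 0 in all libraries.

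The kinases differed from each other. Pdk2 fell, with 46.4, 38.7 and 53.8 FPKM in knockouts, against 98.9, 86.4 and 68.3 FPKM in controls. The highest knockout was below the lowest control (-0.86 on the log2 scale, SE 0.19, limma adjusted p = 0.011), a call that held in each alternative run. Pdk4 had 96.8, 32.3 and 104 FPKM in knockouts, against 85.4, 69.6 and 60.4 FPKM in controls. Replicates 1 and 3 of the knockout were above all controls and replicate 2 was the lowest of all 6 libraries (log2 fold change -0.044, SE 0.43, limma adjusted p = 0.95). Without replicate 2 Pdk4 was higher in the knockout, by 0.50 on the log2 scale, at a limma adjusted p of 0.048. Pdk1, a kinase known as a target of the hypoxia factor HIF-1, had 38.5, 27.9 and 51.0 FPKM in knockouts, against 37.4, 40.0 and 45.4 FPKM in controls (log2 fold change -0.10, SE 0.22, at a limma adjusted p of 0.74). Its groups overlapped, and the fold change was 0.12 without knockout replicate 2. Pdk3, scarce in heart, rose. It had 2.25, 4.35 and 3.00 FPKM in knockouts, against 1.33, 0.798 and 1.02 FPKM in controls, all knockouts above all controls (log2 fold change 1.23, SE 0.24, limma adjusted p = 0.0076). At these levels it stayed well below the other kinases.

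Summed over Pdk1, Pdk2 and Pdk4, kinase RNA was 182, 98.8 and 209 FPKM in knockouts and 222, 196 and 174 FPKM in controls. Pdk4 made up 53.3, 32.7 and 49.9% of that sum in knockouts and 38.5, 35.5 and 34.7% in controls. Knockout replicate 2 lay below all controls and the other knockouts above them (difference 9.04 percentage points, exact permutation p = 0.40; 15.3 points without replicate 2 and 5.04 without replicate 1). Pdk2 made up 25.5, 39.1 and 25.7% in knockouts and 44.6, 44.1 and 39.2% in controls. Set against Pdha1, the kinase sum was 0.764, 0.638 and 0.619 in knockouts and 0.588, 0.511 and 0.455 in controls, higher in all 3 knockouts (log2 difference 0.38; exact permutation p = 0.10; 0.16 adjusted over 8 ratios). With the mean of Pdha1 and Pdhb below the line the log2 difference was -0.066, so the rise was not seen when both E1 subunits were used. Pdhb alone was not put below the line.

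**Figure D3:**
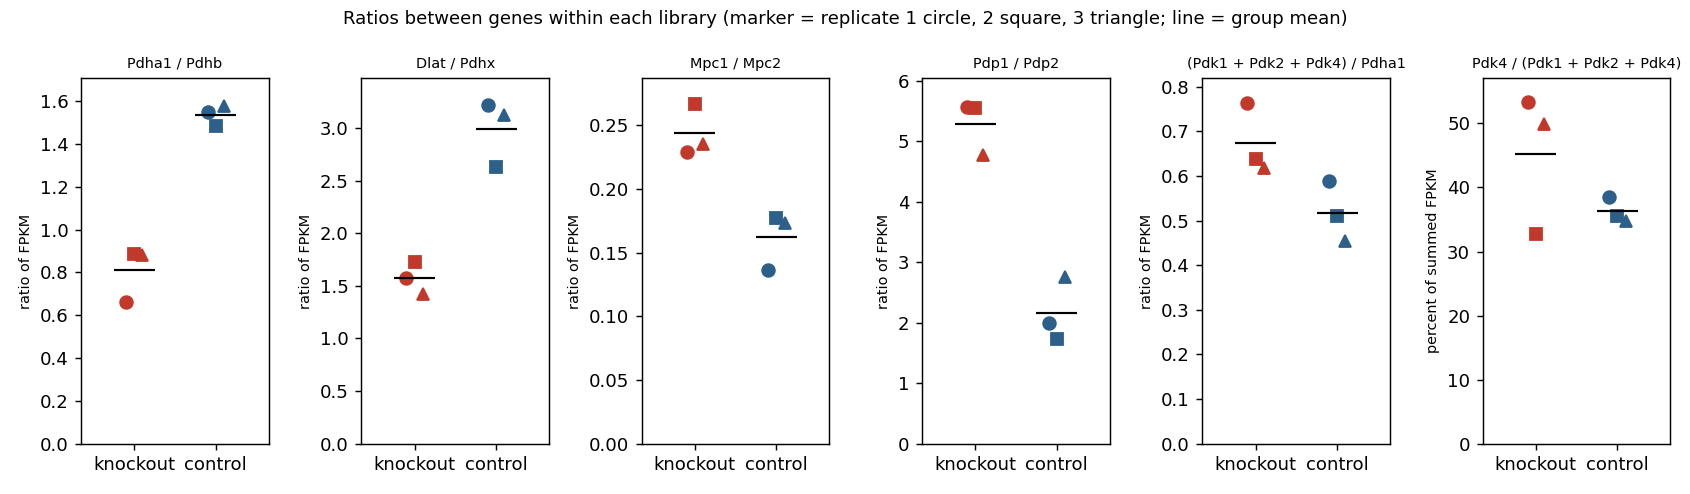
FPKM ratios between genes within each library, knockout (red) left of control (blue), with markers for replicates 1 to 3 and a line at the mean of the plotted ratios; each axis starts at 0. The groups do not overlap for the first 5 ratios, while the Pdk4 share of knockout replicate 2 (32.7%) lies below all controls.

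The phosphatases were lower. Pdp1, the calcium-stimulated isoform of muscle, had 14.1, 9.81 and 7.29 FPKM in knockouts, against 19.2, 16.4 and 19.0 FPKM in controls. No knockout reached the lowest control (log2 fold change -0.82, SE 0.22, limma adjusted p = 0.025). The Pdp1 call was lost without any one control (limma adjusted p = 0.080, 0.054 and 0.080) and when libraries were scaled to one sum (0.097). Pdp2, the second isoform, fell further, with 2.53, 1.77 and 1.53 FPKM in knockouts, against 9.60, 9.47 and 6.91 FPKM in controls (log2 fold change -1.92, SE 0.20, limma adjusted p = 0.00072). Pdpr, which restrains the phosphatase, also fell, with 14.7, 9.33 and 15.6 FPKM in knockouts, against 28.9, 29.7 and 30.9 FPKM in controls (log2 fold change -1.18, SE 0.19, limma adjusted p = 0.0039). For both genes the groups were far apart and the call held in each alternative run. Pdp1 stood at 5.56, 5.56 and 4.77 times Pdp2 in knockouts and at 2.00, 1.73 and 2.75 times in controls, a log2 difference of 1.32 (means 2.40 ± 0.13 and 1.08 ± 0.34, SD, n = 3; exact permutation p = 0.10; 0.16 adjusted over 8 ratios). Pdp1 over the kinase sum was 0.0774, 0.0992 and 0.0348 in knockouts and 0.0865, 0.0834 and 0.109 in controls, with overlapping groups (log2 difference -0.52, exact permutation p = 0.40; -0.83 without knockout replicate 2 and -0.076 without knockout replicate 3).

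Pcx, the entry to oxaloacetate, was the scarcest of the 10 genes. It had 6.18, 4.97 and 7.30 FPKM in knockouts, against 9.75, 6.96 and 7.00 FPKM in controls, and the groups overlapped (log2 fold change -0.34, SE 0.19, limma adjusted p = 0.19; -0.20 without knockout replicate 2 and -0.18 without control replicate 1). Its ratio to Pdha1 was 0.0260, 0.0321 and 0.0216 in knockouts and 0.0259, 0.0181 and 0.0183 in controls (log2 difference 0.36, exact permutation p = 0.20; -0.091 with the mean of both E1 subunits and 0.21 without knockout replicate 2). Of 8 genes of the other biotin carboxylases and their biotin supply, 5 fell and 1 rose, beside the same shares of all loci (19.5 and 16.1%). Mccc2, of leucine breakdown, had 9.31 ± 2.25 FPKM in knockouts and 30.0 ± 1.27 FPKM in controls. Acacb, the muscle acetyl-CoA carboxylase, had 26.1 ± 3.86 and 53.5 ± 10.3 FPKM in knockouts and controls. Acaca, the form that supplies fatty acid synthesis, rose to 9.64 ± 2.01 FPKM in knockouts, against 3.71 ± 0.711 FPKM in controls (SD, n = 3 each).

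**Figure D4:**
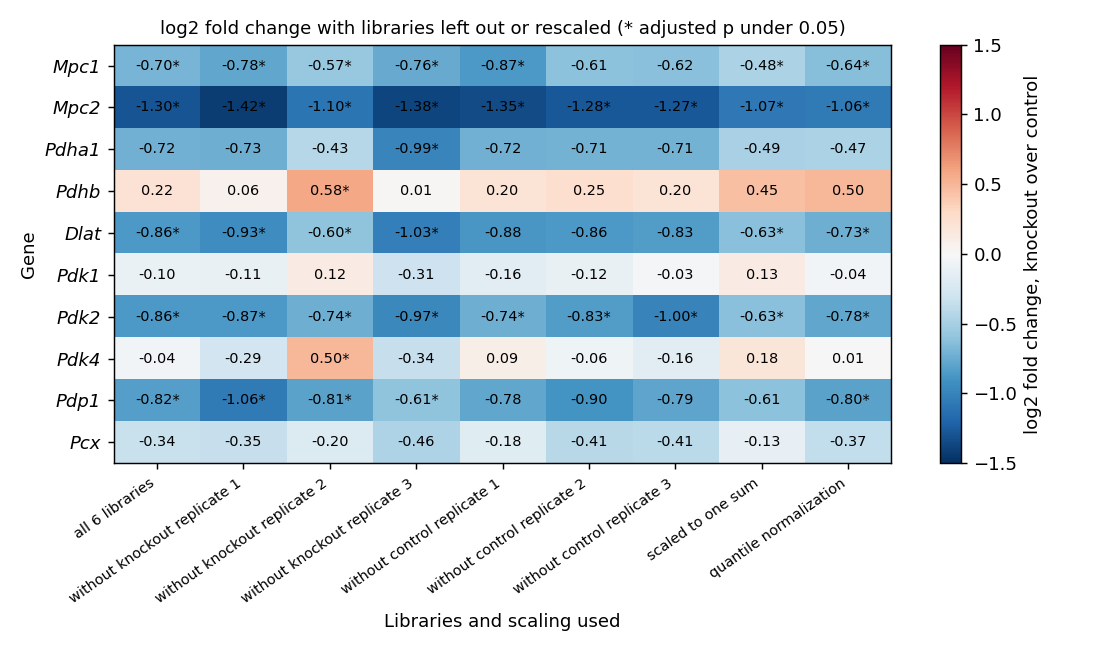
Log2 fold change of knockout over control for each gene with all libraries, with each library left out and under 2 other scalings; colour gives the size and a star marks an adjusted p under 0.05. Mpc2 and Pdk2 carry a star in every column, and the column without knockout replicate 2 is the only one with Pdhb and Pdk4 starred, at 0.58 and 0.50.

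Genes that make, move or use pyruvate and lactate were mixed, with 3 of 11 tested genes higher and 3 lower, beside 16.1 and 19.5% of all loci. Ldhb, the lactate dehydrogenase subunit of oxidative muscle, fell to 272 ± 91.7 FPKM in knockouts, against 660.1 ± 18.1 FPKM in controls (log2 fold change -1.34, limma adjusted p = 0.0096), while Ldha did not pass (189 ± 43.4 and 277 ± 30.4 FPKM in knockouts and controls, limma adjusted p = 0.068). Slc16a3, a lactate exporter of glycolytic cells, rose to 3.87 ± 0.464 FPKM in knockouts, against 0.648 ± 0.107 FPKM in controls (log2 fold change 1.93, limma adjusted p = 0.00038). Slc16a1, of the same family, had 50.5 ± 18.8 FPKM in knockouts and 72.3 ± 2.17 FPKM in controls. Every knockout was below every control, but Slc16a1 did not pass (log2 fold change -0.59, limma adjusted p = 0.13). Gpt, which converts alanine to pyruvate in the cytosol, fell to 3.55 ± 1.55 FPKM in knockouts, against 15.1 ± 0.739 FPKM in controls (log2 fold change -2.03, limma adjusted p = 0.0025). Gpt2, of the same family, rose to 20.4 ± 4.31 FPKM in knockouts, against 13.5 ± 0.802 FPKM in controls (log2 fold change 0.56, limma adjusted p = 0.032). The number higher in this list ran from 2 to 4 with each library left out. Pkm, which makes pyruvate, had 412 ± 134 and 411 ± 36.2 FPKM in knockouts and controls (SD, n = 3 each). Pkm, Ldha, Slc16a1 and Gpt2 were named after their values were seen.

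The sister complexes of pyruvate dehydrogenase, for 2-oxoglutarate, 2-oxoadipate and branched-chain keto acids, share its E3 subunit, and the branched-chain complex also has its own kinase and phosphatase. Of 9 such genes 8 fell and none rose, beside 19.5 and 16.1% of all loci, and their median change was -1.31 on the log2 scale. The largest falls were those of Ppm1k, the phosphatase of the branched-chain complex (log2 fold change -2.69), Ogdhl, a form of 2-oxoglutarate dehydrogenase (-2.21), and Dbt, the branched-chain E2 (-1.54; 9.21 ± 3.19 FPKM in knockouts and 26.7 ± 2.78 FPKM in controls, SD, n = 3). Ogdhl was lowest in knockout replicate 2 (2.56 FPKM, against 11.4 and 17.3 FPKM in the other knockouts), and its log2 fold change was -1.46 without that library. The Ogdhl call was lost without any one control (limma adjusted p = 0.069, 0.066 and 0.057) and without the filter on low values (0.057). The number lower in this list was 5, 4 and 5 without control replicate 1, 2 or 3, with fewer of all loci lower in those runs as well. Of 13 tested genes of lipoate supply, on which every E2 depends, 4 fell and 1, the iron-sulfur carrier Nfu1, rose, so that 5 of 13 were called, a share near the 35.7% of all loci. Gcsh, the lipoate-bearing protein of glycine cleavage, Ndufab1, the mitochondrial acyl carrier, and Bola3 had log2 fold changes of -0.86, -0.81 and -0.80, and Bola3 had -0.52 without knockout replicate 2. The number lower in this list was 1, 1 and 0 without control replicate 1, 2 or 3, again with fewer of all loci lower. Lias, which makes lipoate, had 20.1 ± 3.64 and 20.7 ± 0.280 FPKM in knockouts and controls, and was named after its values were seen.

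Of 17 tested regulators known to act on the kinase genes, 9 fell and 1 rose, beside 19.5 and 16.1% of all loci. The number lower was 6 without any one control, scaled to one sum, and with the replicate number as a block. Fewer of all loci were lower in those runs as well. Lpin1, a coactivator of PPAR alpha, fell to 13.4 ± 2.48 FPKM in knockouts, against 48.0 ± 1.55 FPKM in controls (log2 fold change -1.81, limma adjusted p = 0.00038). Ppara and Rxrg, nuclear receptors, had log2 fold changes of -1.68 and -1.54. The 1 that rose was Hif1a, with 69.3 ± 17.7 FPKM in knockouts and 26.9 ± 1.58 FPKM in controls (log2 fold change 1.32, limma adjusted p = 0.0028), a gene named, like Nfu1, once its values had been seen. Of 7 tested genes next to the products of pyruvate, 3 rose and 1 fell, beside 16.1 and 19.5% of all loci. Pck2, mitochondrial phosphoenolpyruvate carboxykinase, rose to 20.3 ± 5.25 FPKM in knockouts, against 1.74 ± 0.188 FPKM in controls (log2 fold change 3.19, limma adjusted p = 0.00014). Slc25a1, the citrate carrier, rose by a log2 fold change of 1.14. Crat, which buffers acetyl-CoA as acetylcarnitine, fell to 79.3 ± 25.8 FPKM in knockouts, against 163 ± 3.82 FPKM in controls (log2 fold change -1.09, limma adjusted p = 0.011; SD, n = 3 each).

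**Figure D5:**
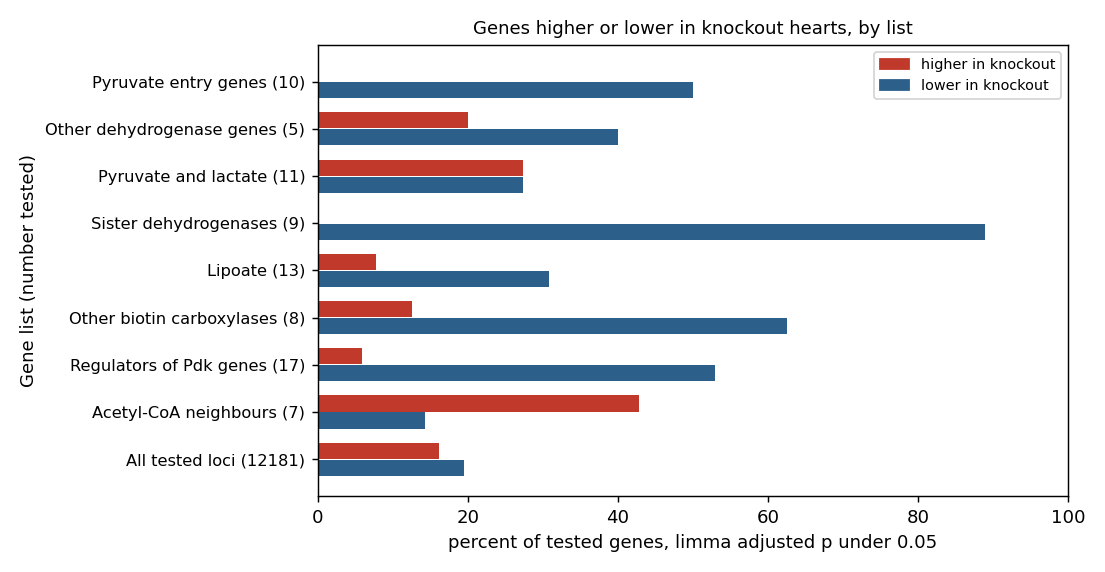
Percent of the tested genes in each list that passed as higher (red) or lower (blue) in knockout hearts, with the number tested in brackets and all tested loci at the bottom. The 10 pyruvate entry genes have 5 lower and none higher, and the sister dehydrogenases 8 of 9 lower, against 19.5% of all loci lower.

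By the fixed measure of likeness, the root mean square difference of log2 values centred on each locus over the 6 libraries, loci close to Pdha1 were Myo18b (0.042), Prdx5 (0.067), Dbi (0.068) and Dsp (0.073). Myo18b had 35.6 ± 14.5 FPKM in knockouts and 57.5 ± 2.20 FPKM in controls, and Prdx5 had 130 ± 44.4 and 194 ± 11.4 FPKM in knockouts and controls (SD, n = 3 each). None of these 4 belongs to the gene lists used here.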

How the data were processed

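Total RNA libraries from 3 knockout and 3 control hearts were used, grouped and numbered by their source names; 6 libraries of mitochondrial RNA ends (PARE) were not analysed here. The labels number samples as replicates without saying that each comes from a separate mouse, so p-values here cover only variation between these samples. The authors deposited FPKM per locus, 1 library a file. Per the submitters' processing notes, the tools were bedtools, Picard 1.23, SAMtools 1.3, HISAT2 2.0.1, HISAT 0.1.6, Cuffdiff, Cufflinks 2.2.1 and StringTie 1.1.0, and the builds mm10 and GRCm38. The sources used here do not give their roles, the annotation, strand use or any scaling between libraries.

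Loci reaching 1 FPKM in 3 or more libraries (12181) were compared as log2(FPKM + 0.5) by limma 3.58.1 (R 4.3.3; mean-variance trend, two-sided, Benjamini-Hochberg over all loci, threshold 0.05). This scale understates changes of low genes. On simulated libraries of 12181 loci, 44% of 100 loci changed 2-fold and 94% of 100 changed 4-fold were recovered, and 6.12% of calls were unchanged loci. All other simulated loci were left unchanged, with independent normal noise, while 35.7% of loci were called in the data. The simulated rates therefore cannot be taken as rates for this comparison. Files hold no read totals; relative depth is the commonest ratio of values under 1 FPKM, at 72 to 94 of 364 to 417 pseudogene and small RNA loci, and no counting interval is given. Ratios between genes were taken within libraries and compared by exact permutation. Members and gene lists were chosen with earlier results of these data known. Named were all 10 members, the other genes of the complex, up to 3 called genes per list with the largest change, Prorp, and the 5 loci most like Pdha1, of which 1 is not reported here. The listed gene Hsd17b8 was not analysed here. Promoters are RefSeq's (GRCm38.p6), matched by symbol for 9 of the 10 members. Alternatives covered pseudocount, filter, scaling, variance model, weights, replicate block and each library left out.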

Additional observations from a re-analysis of the deposited data

How the results depend on the processing

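Across alternatives, Mpc2, Pdk2, Pdp2, Pdpr and Pdk3 kept direction and call. The count of the 10 genes lower was 5, and 3 when libraries were scaled to one sum without mtDNA loci; it ran from 2 to 6 with each library left out, and the count higher from 0 to 2. Calls of Mpc1 (log2 fold change -0.44, limma adjusted p = 0.052 with that scaling) and of Pdp1 (0.055 without the filter, 0.061 with array weights at a log2 fold change of -0.43, 0.11 with that scaling) were also lost. With all libraries kept, uncalled log2 fold changes turned sign as follows. Pdk1 was 0.13 scaled to one sum and 0.16 without mtDNA loci. Pdk4 was 0.0062 after quantile normalization, 0.18 scaled to one sum, 0.22 without mtDNA loci and 0.35 with array weights. With each library left out, Pdk1 ranged from -0.31 to 0.12, Pdk4 from -0.34 to 0.50 (0.09 without control replicate 1) and Pdhx from -0.18 to 0.38 (-0.01 without knockout replicate 1 and without control replicate 1). With the mean of Pdha1 and Pdhb in place of Pdha1, the log2 difference was -0.066 for the kinase ratio and -0.091 for the Pcx ratio. With each library left out the loci called ran from 1212 to 2153 higher and from 1409 to 2389 lower; scaled to one sum without mtDNA loci they were 3379 and 1282. Among the lists, the number lower was 5 in place of 8 for sister dehydrogenases without the filter and with that scaling, 5 in place of 3 for pyruvate and lactate genes with array weights and without knockout replicate 3, and, for genes next to the products of pyruvate, 2 after quantile normalization, 4 with array weights and 3 without knockout replicate 3, in place of 1. No lipoate gene was higher without control replicate 2. Calls of Ndufab1 and Bola3 were lost without any one control (limma adjusted p = 0.056 to 0.11), that of Gcsh without control replicate 3 (0.051), and that of Bola3 also without the filter (0.070), scaled to one sum (0.070), without mtDNA loci (0.088) and with the replicate block (0.060). The cause of these changes was not tested. With the replicate number as a block, 4 of the 10 genes were lower, without Mpc1 (limma adjusted p = 0.056), and 1536 loci were higher and 1807 lower. Same-numbered samples did not deviate together (r = -0.083, -0.064 and -0.0063 over 12181 loci). No sample correlated best with its own number, so the numbers are not taken as pairs. The files hold no read totals, so what depth limits could not be put as an interval; zeros are less certain in the shallower controls.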
